A study of Mus musculus with 12 samples.

Results

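The 10 genes described here encode the transcription factors, cytokine, cytotoxic granule proteins and receptors of type 1 helper (Th1) and killer T cells: Tbx21, Eomes, Hlx, Ifng, Gzmb, Prf1, Il12rb2, Il18r1, Il18rap and Crtam. They were taken by gene symbol from a count table of 32699 symbols, of which 13196 passed a filter on low counts, all 10 of these genes among them. The cells were mouse naive CD4+ T cells, put into culture with antibodies to CD3 and CD28, which stand in for the signals that activate a T cell. They were wild type (WT) or Keap1 knockout (KKO), and total RNA was taken at 24 h or at 48 h. Each of the 4 groups had 3 libraries, 12 in all, and all groups share the same cell source and stimulus. The labels give no strain, age, Cre driver or deleted exon, and do not say whether replicates were separate mice, pools or cultures, so p-values measure the spread between these libraries, which may be technical.

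Th1 cells are the helper T cells that make interferon-gamma and arm macrophages against microbes inside cells. Signals from the T cell receptor and from interferon-gamma turn on Tbx21 (T-bet), T-bet and IL-12 signalling raise the IL-12 and IL-18 receptors, and IL-12 and IL-18 together then drive strong interferon-gamma production without further antigen. Eomes is the relative of T-bet that dominates in memory and killer lymphocytes, and CD4+ cells with Eomes and Crtam can acquire granzyme B and perforin and kill target cells. Keap1 is the adaptor that holds the transcription factor Nrf2 at a low level by sending it for degradation. Nrf2 binds the antioxidant response element in DNA as a dimer with small Maf proteins.

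The upstream sequences of 3 of the 4 genes called higher in KKO at 48 h are shown, chosen because 2 of them hold the core letters of the antioxidant response element there. They are the 250 bases before a RefSeq transcript start on build GRCm38.p6, read 5' to 3' on the gene's own strand, and capitals mark the letters matched by a motif. Gzmb lies on the minus strand (chr14:56262335-56262584) with the AP-1 letters TGANTCA in capitals. Il12rb2 is also on the minus strand (chr6:67376189-67376438), with TGACNNNGC in capitals first, matched on the opposite strand, and the STAT letters TTCNNNGAA second. Prf1 is on the plus strand (chr10:61297586-61297835) with TGACNNNGC in capitals. The whole RefSeq span of a gene can begin before the start used here, and the last 85 bases shown for Prf1, its capitals among them, and the last 105 shown for Il12rb2 lie inside that span.
Gzmb: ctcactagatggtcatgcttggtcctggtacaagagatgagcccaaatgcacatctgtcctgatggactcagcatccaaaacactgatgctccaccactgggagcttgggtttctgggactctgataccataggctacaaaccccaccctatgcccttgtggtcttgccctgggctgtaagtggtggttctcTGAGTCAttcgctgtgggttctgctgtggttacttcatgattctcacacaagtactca
Il12rb2: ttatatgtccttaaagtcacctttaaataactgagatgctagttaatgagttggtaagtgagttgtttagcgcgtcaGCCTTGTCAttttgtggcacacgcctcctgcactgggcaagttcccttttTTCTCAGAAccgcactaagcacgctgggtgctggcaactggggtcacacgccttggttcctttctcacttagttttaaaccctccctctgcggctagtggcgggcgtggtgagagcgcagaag
Prf1: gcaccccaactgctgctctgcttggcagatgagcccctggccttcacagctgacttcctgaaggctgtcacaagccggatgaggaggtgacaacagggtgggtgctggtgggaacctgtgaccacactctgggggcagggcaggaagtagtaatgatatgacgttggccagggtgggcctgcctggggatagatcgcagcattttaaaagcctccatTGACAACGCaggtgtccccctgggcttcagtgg
Both strands were searched for 4 motifs in a RefSeq window of 300 bases, from 250 before to 50 after the start, which was found for 9 of the 10 genes. The core TGACNNNGC occurs in 12.4% of all 32817 promoter windows of that length, TTCNNNGAA in 8.29%, TGANTCA in 7.81% and the T-box letters GGTGTGA in 3.98%. Besides the matches shown, TGACNNNGC was found in Tbx21 (TGACAGCGC, from base 6 after the start), which was called lower in KKO at 48 h. TTCNNNGAA was found in Ifng, in Gzmb after the start and at 2 places in 1 of the 3 windows of Il18r1. Eomes, Hlx and Il18rap held none of the 4 motifs in their windows, and Hlx is the other gene called higher in KKO at 48 h. No window of the 9 genes held GGTGTGA. A match says only that these letters are present, and a link between matches and levels was not tested.

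Gene totals were 17786532 to 32607684 expected counts per library. The targeted gene itself, Keap1, stood at 106 to 132 CPM (counts per mega, M, of the scaled library total) in the 6 WT libraries and at 15.7 to 22.5 CPM in the 6 KKO libraries. The defining markers of CD4+ T cells were present in every group, their 8 genes summing to 2409 to 3086 CPM. Of these 8, edgeR called 0 between genotypes at either time, with 5 at an unadjusted p under 0.05 at 24 h and 1 at 48 h. DESeq2 called 3 lower at 24 h and 1 higher at 48 h, and limma-voom 0 at either time. Here and below, counts at an unadjusted p stand only beside lists with 0 calls. The share of all tested genes at that level is not given. Both Xist, an RNA of female cells, and Y-linked RNAs of male cells were present in KKO replicate 1 at 24 h (76.2 and 125 CPM) and in KKO replicate 3 at 48 h (105.0 and 149 CPM), while 9 of the other 10 libraries held one kind with the other at no more than 0.486 CPM. In the remaining library, KKO replicate 2 at 48 h, Xist stood at 288 CPM beside 2.83 CPM of Y-linked RNAs. At both times WT replicates 1 and 2 held Xist and WT replicate 3 held Y-linked RNAs. In KKO, replicate 2 held mainly Xist at both times, and Y-linked RNAs were held by replicate 3 at 24 h and replicate 1 at 48 h. The 2 kinds were thus not balanced between the genotypes, and effects of sex and genotype cannot be fully told apart. For the 10 genes, values without the 2 libraries that held both are given where leaving them out ended a call, and for the lists the counts without them are given where they differ.

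At 24 h, 2 of the 10 genes were called higher in KKO, Gzmb and Il12rb2, and none lower. Calls are from edgeR, at an adjusted p (Benjamini-Hochberg, across the whole set of tested genes) under 0.05. Among all tested genes 1.89% were called higher and 0.432% lower at this time. The median log2 fold change of the 10 genes was 0.57 beside -0.004 for all tested genes. DESeq2 called 2 higher and 0 lower, limma-voom 1 and 0. In 6 of the 10 (Tbx21, Ifng, Gzmb, Il12rb2, Il18r1 and Il18rap) every KKO library stood above every WT library, which holds for 9.93% of all tested genes. The libraries are bulk RNA, so fewer cells of a type and less RNA per cell cannot be told apart.

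At 48 h the 10 genes went in both directions. Called higher in KKO were Hlx, Prf1, Il12rb2 and Gzmb, and called lower were Eomes, Il18rap, Crtam and Tbx21, while Ifng and Il18r1 were not called. Of all tested genes 12.4% were called higher and 11.9% lower. Every KKO library stood above every WT library for the 4 higher genes, as for 17.1% of all tested genes, and below every WT library for the 4 lower genes, as for 16.2%. The median log2 fold change was -0.27 for the 10 genes and -0.004 for all tested genes. Without the 2 libraries with both kinds of sex-linked RNA, 2 higher calls (Hlx and Prf1) and 3 lower calls (Eomes, Il18rap and Crtam) were made at 48 h, and 1 at 24 h (Gzmb).

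**Figure D1:**
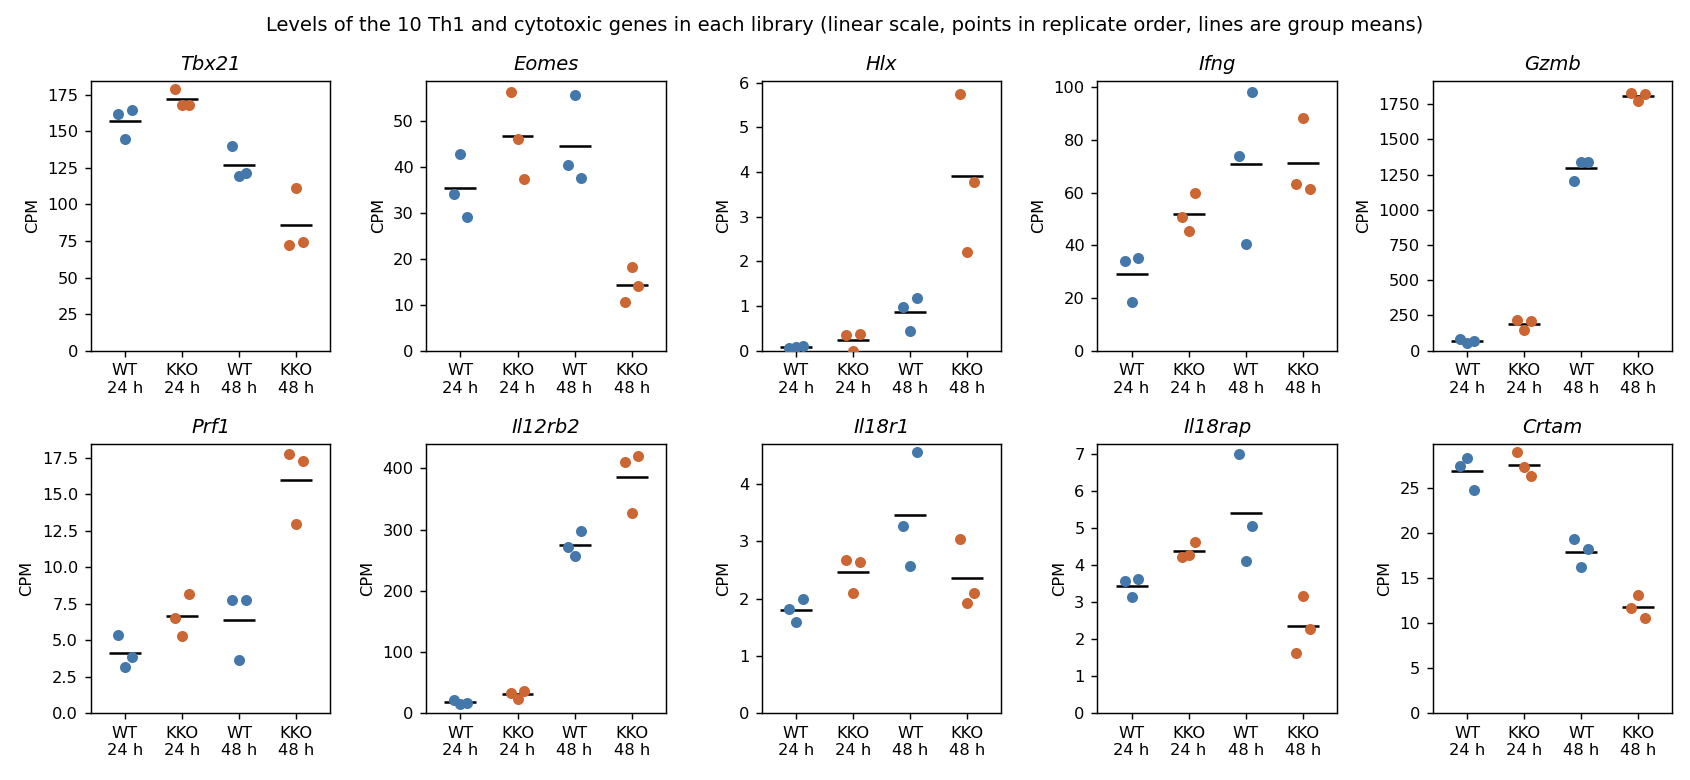
Level of each of the 10 genes in every library, in CPM on a linear axis from 0 with its own scale for each gene. Points are libraries (blue WT, orange KKO) and lines are the means of the 3 libraries of a group. Gzmb and Il12rb2 climb steeply between 24 h and 48 h in both genotypes, while Eomes, Tbx21 and Il18rap are lowest in KKO at 48 h.

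**Figure D2:**
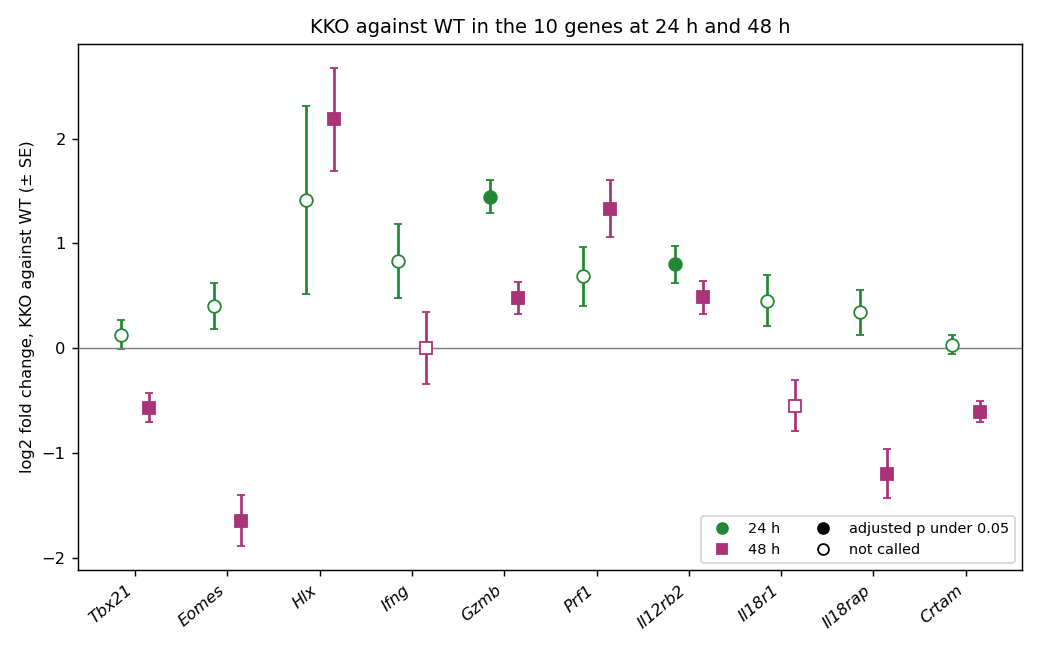
Log2 fold change of KKO against WT for the 10 genes at 24 h (green circles) and 48 h (purple squares), with bars of 1 SE from the edgeR fit. Filled marks are called at an adjusted p under 0.05. All 10 marks at 24 h lie above 0, and 5 of the 10 at 48 h lie below it.

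Tbx21 encodes T-bet, the transcription factor that sets the Th1 program. It lies on chromosome 11 at 97098007 to 97115331 (GRCm38, the assembly also called mm10). At 24 h it stood at 162, 144 and 164 CPM in the 3 WT libraries and at 179, 168 and 168 CPM in KKO. At 48 h it stood at 140, 120 and 121 CPM in WT and at 71.9, 111 and 74.1 CPM in KKO. The KKO libraries were thus the highest of all groups at 24 h and the lowest at 48 h, and the groups did not overlap at either time. KKO replicate 2 at 48 h lay closer to WT than the other KKO libraries did. Log2 fold changes were 0.13 ± 0.13 at 24 h (SE, adjusted p = 0.882) and -0.57 ± 0.14 at 48 h (SE, adjusted p = 0.0127), 1.48-fold lower. The 48 h call was lost without WT replicate 1 (-0.49, adjusted p = 0.0658), KKO replicate 1 (-0.45, adjusted p = 0.0632) or KKO replicate 3 (-0.47, adjusted p = 0.0575) at 48 h. It was also lost with only the 48 h libraries in the fit (-0.57, adjusted p = 0.0564) and without the 2 libraries with both kinds of sex-linked RNA (-0.47, adjusted p = 0.0777).

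Eomes, on chromosome 9 at 118478186 to 118486132, encodes the other T-box factor of effector and memory lymphocytes. WT libraries held 34.0, 42.8 and 29.1 CPM at 24 h and 40.5, 55.6 and 37.4 CPM at 48 h. KKO libraries held 56.3, 46.1 and 37.3 CPM at 24 h and 10.7, 18.2 and 14.1 CPM at 48 h. All 3 KKO libraries at 48 h lay below each of the other 9 libraries, and the other 3 groups overlapped. The difference at 24 h was not called (log2 fold change 0.40 ± 0.22 SE, adjusted p = 0.604). At 48 h Eomes was 3.12-fold lower in KKO, at 14.3 ± 3.75 against 44.5 ± 9.74 CPM (SD, n = 3; log2 fold change -1.64 ± 0.24 SE, adjusted p = 0.00131). The call was made under all 23 alternative settings tried, with adjusted p of at most 0.0105.

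The balance of the T-box pair was read as a ratio. The level of Tbx21 per kilobase of exon, divided by that of Eomes, had a median of 7.07 in WT and 5.41 in KKO at 24 h. The 48 h values were 3.19 to 5.12 in WT, with a median of 4.81, and 7.79 or more in KKO, with a median of 9.10. The WT and KKO libraries overlapped in this ratio at 24 h (5.01 to 8.38 against 4.71 to 6.68) and did not at 48 h.

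Hlx encodes a homeobox factor that acts with T-bet to raise interferon-gamma in Th1 cells, and it lies on chromosome 1 at 184727143 to 184732493. It was near the limit of detection at 24 h, with 2, 3 and 3 counts in the WT libraries and 10, 0 and 9 counts in KKO, where the difference was not called (adjusted p = 0.679). At 48 h it stood at 0.979, 0.442 and 1.19 CPM in WT and at 5.75, 2.21 and 3.77 CPM in KKO. Every KKO library thus held more than every WT library, with 39 to 117 counts against 10 to 25. The log2 fold change at 48 h was 2.18 ± 0.49 (SE, adjusted p = 0.00692), 4.54-fold higher, the largest rise of the 10 genes. Hlx passed the low-count filter through the 48 h groups alone, with 6 of 12 libraries over the level asked for, whereas the other 9 genes were over it in all 12.

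Other regulators of Th1 and killer cells also went both ways at 48 h, with 7 of 16 higher, 3 lower and 6 not called (median log2 fold change 0.23). Prdm1, which encodes the effector factor Blimp-1, rose by 1.52 ± 0.27, Id2, an inhibitor of E proteins, by 1.04 ± 0.23 and Batf, an AP-1 family factor, by 0.99 ± 0.10 (log2 fold change ± SE). Tox, a factor of thymic selection and T cell exhaustion, fell by 1.35 on the log2 scale, from 26.2 to 10.3 CPM. At 24 h 3 of the 16 rose and none fell: Prdm1 (1.91 ± 0.36), the Th2 factor Gata3 (0.91 ± 0.11) and Bhlhe40 (0.47 ± 0.08), a factor that supports cytokine production. DESeq2 called 4 and limma-voom 3 of the 16 at 24 h, all higher. Without the 2 libraries with both kinds of sex-linked RNA, 5 were higher and 2 lower at 48 h, and 2 higher at 24 h.

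Ifng, on chromosome 10 at 118441046 to 118445894, encodes interferon-gamma, the signature cytokine of Th1 cells. At 24 h it stood at 34.1, 18.6 and 35.0 CPM in WT and at 50.9, 45.3 and 59.9 CPM in KKO, so that the groups did not overlap. That difference was nevertheless not called (log2 fold change 0.84 ± 0.35 SE, adjusted p = 0.416). At 48 h it stood at 74.0, 40.5 and 98.4 CPM in WT and at 63.5, 88.4 and 61.6 CPM in KKO. The 3 KKO libraries at 48 h lay inside the wider range of the WT libraries. The log2 fold change at 48 h was 0.00 ± 0.34 (SE, adjusted p = 0.995), and it turned to -0.28 without WT replicate 2 and to -0.19 without KKO replicate 2 at 48 h, neither called.

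Genes that respond to interferon-gamma were lower in KKO at 48 h although Ifng itself was not called. Of 16 such genes 14 fell, none rose and 2 were not called, with a median log2 fold change of -0.58 beside -0.004 for all tested genes. The largest falls were those of Cxcl10, which encodes a T cell attracting chemokine (-1.73 ± 0.31), and of Iigp1 (-1.72 ± 0.32), Irgm1 (-1.005 ± 0.20) and Gbp7 (-0.92 ± 0.11), which encode GTPases of defence inside cells (log2 fold change ± SE). Iigp1 stood at 176 CPM in WT and 53.9 in KKO, and Irgm1 at 139 and 69.7. At 24 h edgeR called 0 of the 16, with 5 at an unadjusted p under 0.05, DESeq2 called 1 higher and limma-voom 0. The smallest p at 24 h was that of Icam1, an adhesion molecule (0.25 ± 0.07 SE, adjusted p = 0.121). Many of these genes also respond to type I interferon, so the list is not specific to interferon-gamma. Without the 2 libraries with both kinds of sex-linked RNA 13 of the 16 were lower at 48 h.

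Of 12 other Th1 cytokine, chemokine and homing receptor genes, 6 fell in KKO at 48 h, none rose and 6 were not called (median log2 fold change -0.47). Xcl1, a chemokine gene of killer cells, fell by 2.19 ± 0.41 on the log2 scale (SE), from 2.59 ± 0.12 to 0.591 ± 0.578 CPM (SD). Il2, the T cell growth factor gene, fell by 1.76 ± 0.44 (SE, adjusted p = 0.0227), from 86.5 ± 13.9 to 25.8 ± 20.3 CPM (SD). The KKO libraries thus differed widely among themselves in both genes. The chemokine genes Ccl3 and Ccl4 fell by 0.98 and 0.79 on the log2 scale. At 24 h edgeR called 0 of the 12, with 3 at an unadjusted p under 0.05, while DESeq2 called 1 higher and limma-voom 0. The smallest p at 24 h was that of Lta, which encodes lymphotoxin alpha (0.54 ± 0.14 SE, adjusted p = 0.0670). With the 2 libraries holding both kinds of sex-linked RNA left out 4 of the 12 were lower at 48 h.

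Gzmb encodes granzyme B, the protease that killer cells deliver into targets to trigger apoptosis, and it lies on chromosome 14 at 56258836 to 56262334. At 24 h it stood at 83.3, 56.4 and 71.0 CPM in WT and at 215, 144 and 214 CPM in KKO. At 48 h it stood at 1208, 1338 and 1339 CPM in WT and at 1826, 1771 and 1823 CPM in KKO. Every KKO library lay above every WT library at both times, and the 4 groups did not overlap in any pair. KKO was 2.72-fold higher at 24 h (log2 fold change 1.44 ± 0.16 SE, adjusted p = 0.000524) and 1.39-fold higher at 48 h (0.48 ± 0.15 SE, adjusted p = 0.0399). The 24 h call was lost in 1 of 23 settings, the fit on the 24 h libraries alone (1.45, adjusted p = 0.0513). The 48 h call was lost without any single one of the 6 libraries of 48 h, at log2 fold changes of 0.43 to 0.50 and adjusted p of 0.0569 to 0.133, and without the 2 libraries with both kinds of sex-linked RNA (0.47, adjusted p = 0.107). It was also lost with no low-count filter (0.46, adjusted p = 0.0791) and with the level of Y-linked RNAs as a covariate (0.42, adjusted p = 0.0794).

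Prf1 encodes perforin, which opens the target membrane so that granzymes enter, and it lies on chromosome 10 at 61297751 to 61304684. It was much scarcer than Gzmb, at 5.39, 3.20 and 3.86 CPM in WT and 6.51, 5.30 and 8.17 CPM in KKO at 24 h. The lowest KKO library lay below the highest WT library, and the 24 h difference was not called (0.69 ± 0.28 SE, adjusted p = 0.353). By 48 h the levels were 7.78, 3.67 and 7.78 CPM in WT and at 17.8, 12.96 and 17.3 CPM in KKO, which did not overlap. Prf1 was then 2.52-fold higher in KKO (log2 fold change 1.33 ± 0.27 SE, adjusted p = 0.00496), and the call was made in all 23 settings.

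Per kilobase of exon, Gzmb exceeded Prf1 by a factor with a median of 31.7 in WT and 49.0 in KKO at 24 h. The factor at 48 h ran from 279 to 656 in WT and from 185 to 246 in KKO. The order of the genotypes in this ratio was thus opposite at the 2 times, with no overlap at either (27.8 to 33.1 against 47.1 to 59.3 at 24 h). The highest value, 656, was that of WT replicate 2 at 48 h, the library with the lowest Prf1 of its group.

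Among 21 other granule and killing genes 17 were tested, of which 6 rose, 3 fell and 8 were not called in KKO at 48 h (median log2 fold change 0.31). Gzma, which encodes granzyme A, rose by 1.96 ± 0.46, from 6.14 to 23.5 CPM, and Ctsw, which encodes a protease of killer cells, by 0.85 ± 0.25 (log2 fold change ± SE). Gzmf, counted among the 6, had a log2 fold change of 1.77 ± 0.58 (SE) at 0.829 CPM in KKO, but it passed the low-count filter only through the 3 KKO libraries of 48 h, and its call was lost in 12 of the 21 settings that tested it. It also belongs to a cluster of near-identical granzyme genes among which counting can split reads, so its value is uncertain. The list also holds inhibitors of proteases. Serpinb9, which encodes the inhibitor of granzyme B, fell by 0.65 on the log2 scale at 48 h, from 191 to 122 CPM, and its relative Serpinb6b fell by 0.24, from 323 to 273 CPM (adjusted p = 0.0135). At 24 h Serpinb6b was higher in KKO (0.41 ± 0.07 SE, adjusted p = 0.00343), and the difference between its effects at the 2 times was called (-0.65, adjusted p = 0.00206). Serpinb6b was the 1 gene of the 17 called at 24 h, against 2 with DESeq2 and 1 with limma-voom, all higher. Leaving out the 2 libraries with both kinds of sex-linked RNA, 3 were higher and 1 lower at 48 h.

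Some marker RNAs of other cell types were also higher in KKO, while those of natural killer cells were not called. The 2 CD8 markers, Cd8a and Cd8b1, summed to 7.04 to 8.11 CPM in WT and 9.36 to 10.8 CPM in KKO at 24 h, and to 8.32 to 10.6 and 12.7 to 13.4 CPM at 48 h, where both were called higher in KKO. The gamma-delta T cell and innate lymphoid genes, 3 in the table, summed to 3.89 to 4.10 CPM in WT and 5.58 to 8.26 CPM in KKO at 24 h, and to 3.01 to 4.32 and 5.77 to 10.7 CPM at 48 h, with 1 and 2 of the 3 called higher. Natural killer cell genes, 7 in all, summed to 0.884 to 3.75 CPM over the 12 libraries, with 4 tested and 0 called by edgeR, DESeq2 or limma-voom at either time and 0 at an unadjusted p under 0.05 in edgeR. The 8 B cell genes summed to 10.4 to 15.003 CPM in WT and 22.5 to 32.5 CPM in KKO at 24 h, and to 15.03 to 18.7 and 35.7 to 43.7 CPM at 48 h, with 4 and 7 called higher. The 9 macrophage and dendritic cell genes summed to 0.750 to 1.39 CPM in WT and 0.894 to 1.85 CPM in KKO at 24 h, with 1 of them at 0 in each group. At 48 h they summed to 0.707 to 1.23 CPM in WT and 1.81 to 2.67 CPM in KKO, without overlap and with 3 at 0 in each group. Flt3, a growth factor receptor gene of dendritic cell precursors and the 1 tested gene of the 9, was called higher at 48 h (1.91 ± 0.43 SE, adjusted p = 0.00581), from 0.441 to 1.70 CPM, and this call was made in all 22 settings that tested it. Flt3 was over the low-count level in 3 KKO and 2 WT libraries at 48 h and in none at 24 h. It thus passed the filter only with the KKO libraries of 48 h, where it was high, which limits this call. When the 2 libraries with both kinds of sex-linked RNA were left out, 0 CD8, 0 gamma-delta and 0 B cell genes were called at 24 h. At 48 h 0, 1 and 6 were called. The medians of the log2 fold change without those libraries were 0.42, 0.93 and 1.13 at 24 h, and 0.62, 1.33 and 1.32 at 48 h. With all libraries, DESeq2 called 0 CD8, 1 gamma-delta and 7 B cell genes higher at 24 h, and limma-voom 0, 0 and 6. The part of these cells in the levels of Gzmb, Prf1, Gzma and Eomes was not tested.

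Il12rb2 encodes the signalling chain of the IL-12 receptor, which lets a T cell respond to IL-12, and it lies on chromosome 6 at 67285986 to 67376293. At 24 h it stood at 21.7, 15.4 and 16.6 CPM in WT and at 32.7, 23.4 and 37.1 CPM in KKO. The levels at 48 h were 272, 257 and 298 CPM in WT and at 411, 327 and 420 CPM in KKO. KKO lay above WT in every library at both times. The log2 fold changes were 0.80 ± 0.18 at 24 h (SE, adjusted p = 0.0399) and 0.49 ± 0.16 at 48 h (SE, adjusted p = 0.0469). Both calls are close to the threshold. The 24 h call was lost without WT replicate 2 or 3 or KKO replicate 1 or 3 at 24 h, and without KKO replicate 1 or 3 at 48 h (adjusted p 0.0571 to 0.143). It was also lost with limma-voom (adjusted p = 0.0521), with the 24 h libraries alone (adjusted p = 0.123) and with no low-count filter (adjusted p = 0.0783). The 48 h call was lost without WT replicate 3 or KKO replicate 1 at 24 h, and without WT replicate 1 or 2 or KKO replicate 1 or 3 at 48 h (adjusted p 0.0531 to 0.175), and with no low-count filter (adjusted p = 0.0942) or the Y-linked covariate (0.38, adjusted p = 0.0661). In the 10 libraries without both kinds of sex-linked RNA the values were 0.76 (adjusted p = 0.186) and 0.42 (adjusted p = 0.177).

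The 2 chains of the IL-18 receptor lie side by side on chromosome 1, with Il18r1, the binding chain, at 40465552 to 40500854 and Il18rap, the accessory chain, at 40515362 to 40551707. A gap of 14.5 kb separates them. Il18rap stood at 3.57, 3.14 and 3.64 CPM in WT and at 4.22, 4.27 and 4.64 CPM in KKO at 24 h, without overlap but not called (0.34 ± 0.21 SE, adjusted p = 0.664). After 48 h the gene stood at 7.02, 4.11 and 5.08 CPM in WT and at 1.62, 3.17 and 2.29 CPM in KKO. The KKO libraries, all above WT at 24 h, were thus all below WT at 48 h, 2.29-fold lower (log2 fold change -1.20 ± 0.23 SE, adjusted p = 0.00257), and the call was made in all 23 settings. Il18r1 stood at 1.82, 1.60 and 2.00 CPM in WT and 2.68, 2.09 and 2.64 CPM in KKO at 24 h (0.45 ± 0.24 SE, adjusted p = 0.548). The 48 h libraries held 3.26, 2.56 and 4.55 CPM in WT and 3.05, 1.92 and 2.10 CPM in KKO, which overlapped (-0.55 ± 0.24 SE, adjusted p = 0.110). With the level of Y-linked RNAs as a covariate the 48 h difference of Il18r1 was called (-0.72, adjusted p = 0.0180), while those of Gzmb and Il12rb2 no longer were.

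Both chains sit in a cluster of interleukin 1 receptor family genes, so the 8 neighbouring genes were read as well. Of the 10 genes in this stretch of 772 kb 7 were tested. At 48 h Il1r2, the decoy receptor of IL-1, rose by 1.66 ± 0.32 and Mfsd9, which encodes a transporter family protein, by 1.15 ± 0.28 (log2 fold change ± SE), to 2.55 and 3.12 CPM in KKO. Il1r1, the signalling receptor of IL-1, was also called higher (2.30 ± 0.53 SE), at 0.576 CPM in KKO, but it passed the low-count filter only through the 3 libraries of that group, so it was tested only because it was high there. Il1rl2, which encodes the IL-36 receptor, was called lower, from 2.72 to 1.68 CPM (-0.70 ± 0.23 SE, adjusted p = 0.0397). That call was lost in 12 of 23 settings, among them limma-voom (adjusted p = 0.0544), only the 48 h libraries (adjusted p = 0.101), the 2 libraries with both kinds of sex-linked RNA left out (-0.70, adjusted p = 0.129), 8 single libraries left out (adjusted p 0.0504 to 0.192) and the threshold of 0.01. At 24 h edgeR and DESeq2 called 0 of the 5 tested neighbours with 0 at an unadjusted p under 0.05, and limma-voom called 0. The smallest p at 24 h was that of Il1rl1, the IL-33 receptor gene (0.73 ± 0.35 SE, adjusted p = 0.467). Whether the counting used strand is not given in the sources used here, so reads that overlap 2 genes cannot be assigned by strand.

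**Figure D3:**
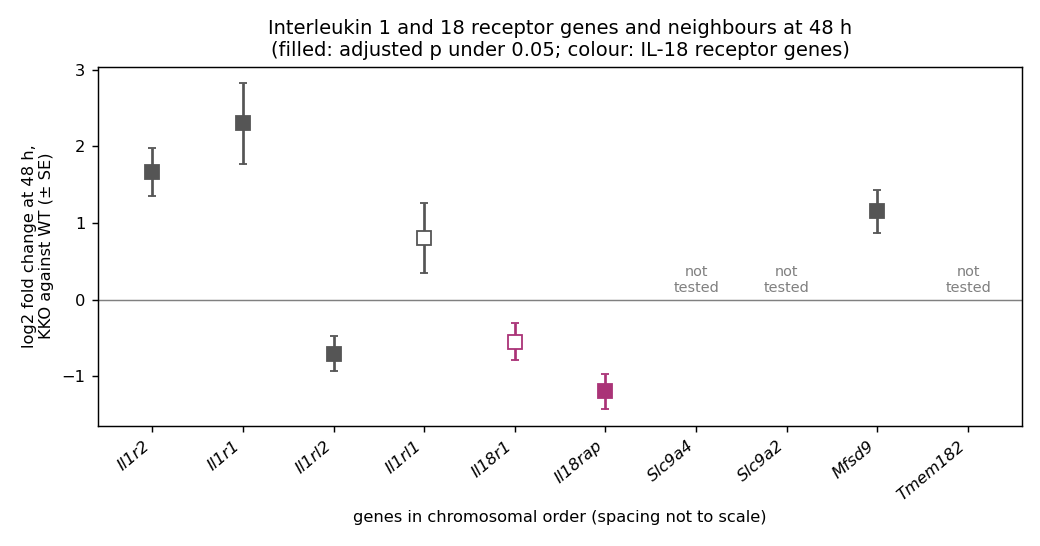
Log2 fold change of KKO against WT at 48 h for the interleukin 1 and 18 receptor genes and their neighbours, in their order along the chromosome (spacing not to scale), with bars of 1 SE from the edgeR fit. Filled marks are called at an adjusted p under 0.05, purple marks are the IL-18 receptor genes, and 3 genes did not pass the low-count filter. Il1r2 and Il1r1 lie above 0, and Il18rap and Il1rl2 below it, the last with a call that was lost in 12 of 23 settings.

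The partners that carry IL-12, IL-18 and interferon-gamma signals were mostly not called at 24 h, with 1 of 17 higher and none lower. That gene was Socs1, an inhibitor of cytokine signalling (0.57 ± 0.07 SE, adjusted p = 0.000605), whose level went from 48.3 to 71.6 CPM. At 48 h 5 of the 17 rose, 3 fell and 9 were not called (median log2 fold change 0.10). Socs3, another such inhibitor, rose by 1.50 ± 0.26 (SE), from 89.0 to 251 CPM. Stat4, the factor that relays IL-12 signals, fell by 0.71 on the log2 scale, from 230 to 141 CPM, as did Irf1, from 196 to 119 CPM. DESeq2 called 2 higher and 1 lower at 24 h, and without the 2 libraries with both kinds of sex-linked RNA 3 were higher and 3 lower at 48 h.

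**Figure D4:**
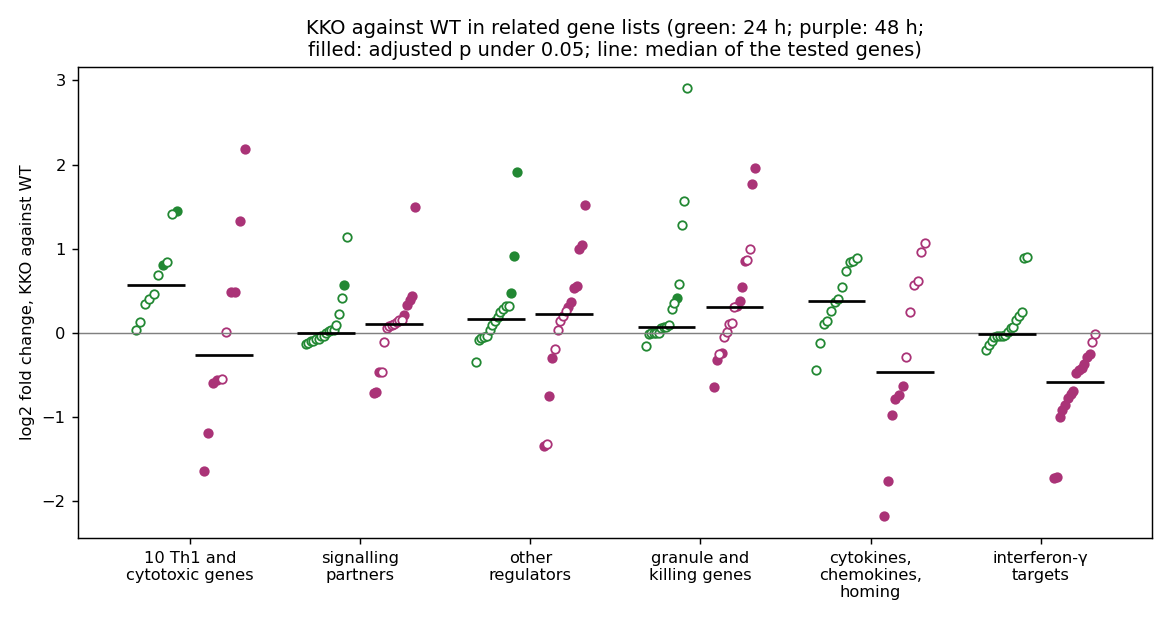
Log2 fold change of KKO against WT for the 10 genes and for 5 lists of related genes, at 24 h (green) and 48 h (purple). Each point is a tested gene, filled where called at an adjusted p under 0.05, and the line is the median of the list. Of the interferon-gamma targets 14 of 16 are called lower at 48 h and none at 24 h.

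Crtam, on chromosome 9 at 40972798 to 41004628, encodes an adhesion receptor of activated T cells that marks CD4+ cells able to become killers. It stood at 27.5, 28.3 and 24.8 CPM in WT and at 29.0, 27.3 and 26.3 CPM in KKO at 24 h, with overlapping ranges (0.03 ± 0.09 SE, adjusted p = 0.983). By 48 h it stood at 19.3, 16.2 and 18.2 CPM in WT and at 11.7, 13.1 and 10.6 CPM in KKO. Crtam had the smallest SE of the 10 genes, and its 48 h libraries did not overlap. It was 1.52-fold lower in KKO at 48 h, and this was called in all 23 settings (log2 fold change -0.60 ± 0.10 SE, adjusted p = 0.000768).

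The difference between the genotype effects at 48 h and at 24 h was tested as an interaction. It was called for 4 of the 10 genes, all with a lower value at 48 h. Of all tested genes 1.46% were called with a higher value at 48 h and 2.72% with a lower one. Eomes had the largest difference, -2.04 ± 0.33 on the log2 scale (SE, adjusted p = 0.0115), followed by Il18rap at -1.54 ± 0.32 (SE, adjusted p = 0.0174), Gzmb at -0.96 ± 0.22 (SE, adjusted p = 0.0327) and Crtam at -0.64 ± 0.13 (SE, adjusted p = 0.0175). These 4 do not share a pattern: Gzmb was higher in KKO at both times and by less at 48 h, while the other 3 were called lower in KKO at 48 h and not called at 24 h. Tbx21 (-0.70 ± 0.19 SE, adjusted p = 0.0620), Il18r1 (-1.002 ± 0.34 SE, adjusted p = 0.103), Ifng (-0.83 ± 0.49 SE, adjusted p = 0.347) and Il12rb2 (-0.31 ± 0.24 SE, adjusted p = 0.458) were not called. Prf1 and Hlx had differences of 0.65 and 0.77 (adjusted p = 0.344 and 0.737). With those 2 libraries of both sex-linked RNA kinds left out none of the 4 was called (Eomes -1.88, adjusted p = 0.0846; Il18rap -1.55, 0.112; Gzmb -0.88, 0.156; Crtam -0.52, 0.130). The Gzmb call was lost without any of 7 single libraries (WT replicate 3 and KKO replicates 1 and 3 at 24 h, WT replicates 1 and 2 and KKO replicates 1 and 3 at 48 h; adjusted p 0.0554 to 0.0940). The Il18rap call was lost without WT replicate 2 at 24 h (adjusted p = 0.0544) or KKO replicate 3 at 48 h (adjusted p = 0.0545). The Crtam call was lost without WT replicate 3 (adjusted p = 0.0550) or KKO replicate 1 (adjusted p = 0.0526) at 24 h, or KKO replicate 3 at 48 h (adjusted p = 0.0573). Tbx21 was called without KKO replicate 2 at 48 h (-0.94, adjusted p = 2.59e-05), with DESeq2 (-0.70, adjusted p = 0.00916), with the replicate block (-0.72, adjusted p = 0.0337) and with the Y-linked covariate (-0.69, adjusted p = 0.0331). The Y-linked covariate also gave a call for Il18r1 (-1.03, adjusted p = 0.0244).

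The change from 24 h to 48 h was compared within each genotype, on the same libraries as above. In WT 6 of the 10 genes rose, 1 fell and 3 were not called, beside 31.0% and 29.7% of all tested genes called higher and lower. In KKO 4 rose, 4 fell and 2 were not called, beside 34.4% and 33.4%. Gzmb rose 18.5-fold in WT (log2 fold change 4.21 ± 0.17 SE, adjusted p = 3.43e-09) and 9.46-fold in KKO (3.24 ± 0.17 SE, adjusted p = 1.62e-08). Il12rb2 rose 15.4-fold in WT and 12.4-fold in KKO. Hlx, counted among the rises of both genotypes, rose from the few counts at 24 h (adjusted p = 0.00221 and 2.8e-05). It passed the low-count filter only through the 48 h groups, so it was tested over time only because it was high at 48 h. The remaining rises in WT were Ifng (2.43-fold, adjusted p = 0.0118), Il18r1 (1.91-fold, adjusted p = 0.00328) and Il18rap (1.56-fold, adjusted p = 0.0181). The Ifng call in WT was lost when the WT libraries were fitted alone (adjusted p = 0.0673), and the Il18rap call without WT replicate 2 at 24 h (adjusted p = 0.0699) or WT replicate 1 at 48 h (0.42, adjusted p = 0.121).

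In KKO 4 genes fell between the times, with log2 fold changes of -1.003 for Tbx21 (adjusted p = 3.46e-05), -1.71 for Eomes (adjusted p = 8.43e-05), -0.90 for Il18rap (adjusted p = 0.00298) and -1.22 for Crtam (adjusted p = 5.38e-08). Prf1 rose 2.41-fold there (adjusted p = 0.000989), while Ifng at 0.45 (adjusted p = 0.276) and Il18r1 at -0.07 (adjusted p = 0.825) were not called. Ifng was called over time in KKO when the KKO libraries were fitted alone (0.46, adjusted p = 0.0332). Its interaction was not called (adjusted p = 0.347), so a rise in WT only is not shown. In WT, Crtam fell by 0.59 (adjusted p = 6.07e-05), and Eomes at 0.34 was not called (adjusted p = 0.219). The calls of Tbx21 and Prf1 in WT changed with pairing of same-numbered libraries across time and with other settings. Without pairing Tbx21 had a log2 fold change of -0.31 (adjusted p = 0.0678) and Prf1 of 0.62 (adjusted p = 0.0782), and with the replicate block they were called at -0.31 (adjusted p = 0.0426) and 0.60 (adjusted p = 0.00739). Unpaired, Tbx21 was also called with the WT libraries alone (-0.31, adjusted p = 0.00353), with DESeq2 (adjusted p = 0.0472) and without KKO replicate 1 (adjusted p = 0.0471) or KKO replicate 2 (adjusted p = 0.000614) at 48 h, which enter through the shared estimate of spread. Prf1 was called with DESeq2 (adjusted p = 0.0360) and without WT replicate 1 at 24 h (0.86, adjusted p = 0.0281) or WT replicate 2 at 48 h (0.91, adjusted p = 0.00424).

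On a scale per kilobase of exon, which allows levels of different genes to be compared, the most abundant of the 10 transcripts was Gzmb in every group but WT at 24 h. In WT at 24 h Tbx21 led with 63.1 CPM per kilobase, before Gzmb with 48.9 and Ifng with 24.2. In KKO at 24 h Gzmb led with 133, before Tbx21 with 69.0 and Ifng with 43.1. By 48 h Gzmb stood at 902 in WT and 1258 in KKO, and Il12rb2, at 4.71 and 8.19 at 24 h, was second with 72.7 and 102. The IL-18 receptor chains stayed at or below 1.105 in every group, and Hlx at or below 1.72.

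The genes whose log2 levels ran closest to a member over the 12 libraries were read as a description. These correlations follow mainly the 4 group means that the libraries share, and they rest on 10683 other genes whose mean was 2 CPM or more. Il12rb2 ran closest to Bhlhe40 (r = 0.997), Irs2 and Anxa2, and Gzmb to Fam71b (r = 0.996), Atf3 and Osm. Gzmb and Il12rb2 ran together at r = 0.991, and at 0.845 after group means were taken out. Tbx21 ran closest to Traip (r = 0.984), Grpel2 and Haus6, and with Crtam at r = 0.944, or 0.603 after group means were taken out. Crtam ran closest to Rragb (r = 0.989), Ccl4 and Cbx1, and Hlx to Arf6 (r = 0.992), Nxn and Fam49b. Prf1 ran closest to Sbno2 (r = 0.974), Specc1 and Tnfrsf8, and Eomes to Olfr56 (r = 0.967), Cnksr3 and Sp110. The values were lower for Il18rap with Ticrr (r = 0.931), Ifng with Fam177a (r = 0.929) and Il18r1 with Xkr5 (r = 0.840). Tbx21 and Eomes, the T-box pair, ran together at r = 0.818 over all libraries and 0.362 after group means were taken out.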

How the data were processed

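RNA was measured by sequencing in 12 libraries, 3 in each group of genotype and time, grouped by the genotype, time and title labels. The authors deposited RSEM expected counts per gene, not normalised. Reads were checked with FastQC and counted with RSEM on mouse build mm10, per the submitters' processing notes. A human reference is named in the design text of the series instead, but the symbols in the table are mouse symbols. Versions, aligner, annotation and strand setting are not given in the sources used here. Another 6 columns of the table were not used, since no sample label describes them. An expected count can be a fraction, and 10.8 to 12.7% of values per library were not whole, but 0 of the 120 values of the 10 genes. The table held 1 row with no gene name, of at most 2 counts, which was left out, and 27 symbols turned into dates, which were not turned back.

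After rounding, counts went through edgeR 4.0.16 (R 4.3.3): filterByExpr on the 4 groups (minimum count 10), TMM scaling, robust quasi-likelihood F tests, 2-sided, all 12 libraries in 1 fit with 8 residual degrees of freedom, and Benjamini-Hochberg adjustment over all 13196 tested genes in each of 5 comparisons. CPM uses TMM-scaled totals. The fit was tested on data simulated from its own model, with the spread estimated from these libraries. Those data held no difference of sex or mixed libraries, so that test says nothing about them. Within groups, pairs of replicates had a Spearman correlation of 0.989 to 0.997, and no pair agreed within sampling noise (chi-square over degrees of freedom of 5.83 or more).

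Same-numbered WT libraries deviated together across time (r = 0.126, 0.103 and 0.343), all over 0.1, though WT replicate 1 at 24 h correlated more with replicate 2 at 48 h (r = 0.151) than with its own number. The replicate block is therefore given beside WT time effects where it changes a call. The pairing comes from the data, since no label explains the numbers.

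The members and gene lists were chosen with earlier results of these data known, so no list is independent evidence. All 10 members are named, and from each list up to 4 called genes with the largest change in each genotype comparison, or the gene with the smallest p. A gene that this rule names is not reported here. Likeness is Pearson's r of log2 CPM (prior count 2). The alternatives tried were DESeq2 1.42.0, limma-voom (limma 3.58.1), upper-quartile or RLE scaling, no filter or 1 CPM in 6 libraries, only the libraries compared, the replicate block, adjusted p under 0.01, each library left out, the 2 libraries with both Xist and Y-linked RNA left out, and the Y-linked level as a covariate. Positions and promoters are RefSeq's on GRCm38.p6, exon lengths GENCODE M21's.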

Additional observations from a re-analysis of the deposited data

Results flagged for a closer look

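The difference between KKO and WT was itself different at 48 h and at 24 h for 4 genes, by the interaction test in edgeR. On the log2 scale the value at 48 h minus that at 24 h was -2.045 for Eomes (adjusted p = 0.0115), which stood at 46.6 ± 9.51 CPM in KKO at 24 h and at 14.3 ± 3.75 CPM at 48 h (SD, n = 3). It was -1.54 for Il18rap (adjusted p = 0.0174), from 4.38 ± 0.229 to 2.36 ± 0.775 CPM in KKO (SD, n = 3). It was -0.64 for Crtam (adjusted p = 0.0175), from 27.5 ± 1.37 to 11.8 ± 1.27 CPM in KKO (SD, n = 3). For Gzmb, which was higher in KKO at both times, it was -0.96 (adjusted p = 0.0327). None of these 4 tests passed the threshold when the 2 libraries with Xist as well as Y-linked RNA were left out. Groups of 3 libraries were not tested for outlying samples.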

How the results depend on the processing

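Of 1134 values of the 10 genes under 23 alternative settings, 1045 kept direction and side of the threshold, 63 lost the call, 17 gained it and 9 changed sign. The calls at 48 h for Eomes, Prf1, Il18rap and Crtam were made in all 23 settings and that for Hlx in all 22 that tested it. At 24 h 2 of the 10 genes were called. This was 1 with no low-count filter, with limma-voom, at adjusted p under 0.01 and without the 2 libraries with both Xist and Y-linked RNA, 0 when only the 24 h libraries were fitted, and 1 to 2 when single libraries were left out. At 48 h 8 were called, against 5 at adjusted p under 0.01 and 5 without those 2 libraries, and 5 to 8 with single libraries left out. For the difference between times 4 were called, against 0 at adjusted p under 0.01 and 0 without those 2 libraries, and 1 to 5 with single libraries left out. The cause was not tested. The values that changed sign were never called. Crtam at 24 h was -0.0059 when those 2 libraries were left out, and -0.0209 (WT replicate 3 at 24 h) to 0.0733 with single libraries left out. Ifng at 48 h was -0.0118 with no filter and -0.0477 with the Y-linked covariate, and -0.28 (WT replicate 2) to 0.314 with single libraries left out, among them -0.19 (KKO replicate 2). Il18r1 over time in KKO was 0.0816 when those 2 libraries were left out, and -0.2905 to 0.0442 (KKO replicate 2 at 48 h) with single libraries left out, among them 0.0143 (KKO replicate 3 at 48 h).

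Among all tested genes 307 were called at 24 h (107 without those 2 libraries, 128 at adjusted p under 0.01, 488 with DESeq2, 524 with only the 24 h libraries, 132 to 505 with single libraries left out). At 48 h 3209 were called (1363 to 5362 over all settings), and for the difference between times 552 (54 to 3217, and 1120 with DESeq2). Scaling moved the median of all genes by less than 0.1 on the log2 scale. KKO libraries with the same number did not deviate together across time (r = 0.0287, 0.0852 and 0.0408), nor did WT and KKO libraries at a given time in every pair. With the replicate block, Ifng over time in KKO was called (0.44, adjusted p = 0.0300), as was Tbx21 for the difference between times (-0.72, adjusted p = 0.0337), and 931 genes were called for that difference. Both calls rest on pairing KKO libraries by number, although KKO replicates 1 and 3 each held different kinds of sex-linked RNA at the 2 times. Apart from these calls and those of Tbx21 and Prf1 over time in WT, the replicate block changed no call of the 10 genes. Depth limits Hlx at 24 h, with 0 to 10 counts per library. Depth does not limit the other 9 genes in this way, since each library held at least 33 of their counts.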
